A study of Danio rerio with 8 samples.

Results

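The cadherin and protocadherin genes described here are the rows of the deposited count table whose Ensembl identifier is paired with a zebrafish symbol that starts with cdh and a digit, dsc, dsg or pcdh. This held for 49 of 28272 rows. Of these, 3 are no cadherins although their letters match: both rows named dscam, an immunoglobulin superfamily gene, and dscc1, a gene of sister chromatid cohesion. The remaining 46 rows were 3 type I and 9 type II classical cadherins, 2 desmosomal cadherins, 8 other cdh genes, 14 non-clustered protocadherins and 10 clustered protocadherins. Another 42 identifiers that carry such a symbol had no matched row, among them that of cdh1 (E-cadherin), so cdh1 and its balance with cdh2 were not analysed here.

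Cadherins are cell surface adhesion proteins that bind each other between neighbouring cells through calcium-dependent extracellular repeats. The classical cadherins (types I and II) hold the actin cytoskeleton through catenins, the desmosomal cadherins (desmogleins and desmocollins) hold keratin filaments through plakoglobin, plakophilins and desmoplakin, and protocadherins lack these attachments. In skin, epidermal cells are joined by E-cadherin and desmosomes, and pigment cells are known to exchange cadherins as they move and as melanoma forms.

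The study compared 4 libraries of melanoma cells with 4 libraries of cells labelled scale melanocytes, all from adult fish whose strain is given as Tg(mitfa:BRAFV600E), p53(zdf1), a mitfa:EGFP transgene and alb(b4). Both groups therefore carried the BRAFV600E transgene under the promoter of the pigment cell gene mitfa, the p53 allele and the alb mutation. In both groups, EGFP-positive cells without pigment had been sorted, so EGFP was driven by the same promoter as the oncogene. Separate fish for each library are not stated in the labels, and the spread that the p-values measure may therefore be technical.

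Each library held between 86888494 and 100270657 counts. Levels are given as CPM (counts per 10 to the power of 6 reads, scaled with TMM factors), which are not corrected for gene length, so levels of different genes are not ranked against each other. Changes are log2 fold changes of melanoma over the other group with an approximate SE, and come from the quasi-likelihood test of edgeR, with p-values adjusted by Benjamini and Hochberg's method over 26749 tested genes and a threshold of 0.05. The cells labelled scale melanocytes carried few pigment cell transcripts: 11 rows of pigment cell markers summed to between 1953 and 11671 CPM in melanoma, against 68.3 to 127 CPM in the other group. By contrast, 12 rows of epidermal markers summed to between 28.6 and 201 CPM in melanoma, against 49029 to 103428 CPM in the other group. That group is called the scale libraries below, and its contrast with melanoma cannot be told apart from one between cell types. Its libraries also differ in complexity. Scale replicate 2 and the second of 2 columns that both carry the name of replicate 3 had 22836 and 22537 genes with at least 10 counts. The other 2 scale libraries, replicate 1 and the first column of replicate 3, had 26377 and 26448, and the melanoma libraries between 24832 and 26706.

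Of the 46 cadherin rows, 43 passed the filter on low counts. In melanoma 8 of these were higher and 12 lower, where 21.7% of all tested genes were higher and 15.2% lower, 36.8% in all. All 8 that rose were protocadherins. Of 22 cdh, dsc and dsg rows, 8 fell and 0 rose with edgeR (1 had a positive change at an unadjusted p under 0.05), while DESeq2 called 1 higher, cdh10a, and limma-voom 0. The median log2 change was -0.98 over the 43 members and 0.05 over all tested genes. Since the filter passes a gene that is high in 1 group alone, these counts and medians describe the tested rows and not all 46.

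The balance of directions depended on scaling and on the scale libraries used. With total counts alone, which moved the median change of all genes to 1.17, 11 members were higher and 7 lower, where 40.6% of all tested genes were higher and 6.65% lower, and the 3 cdh genes cdh10a, cdh11 and cdh23 joined those called higher. Without the 2 less complex scale libraries (replicate 2 and the second column of replicate 3), 7 members were higher and 21 lower, where 17.8% of all genes were higher and 17.8% lower.

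**Figure D1:**
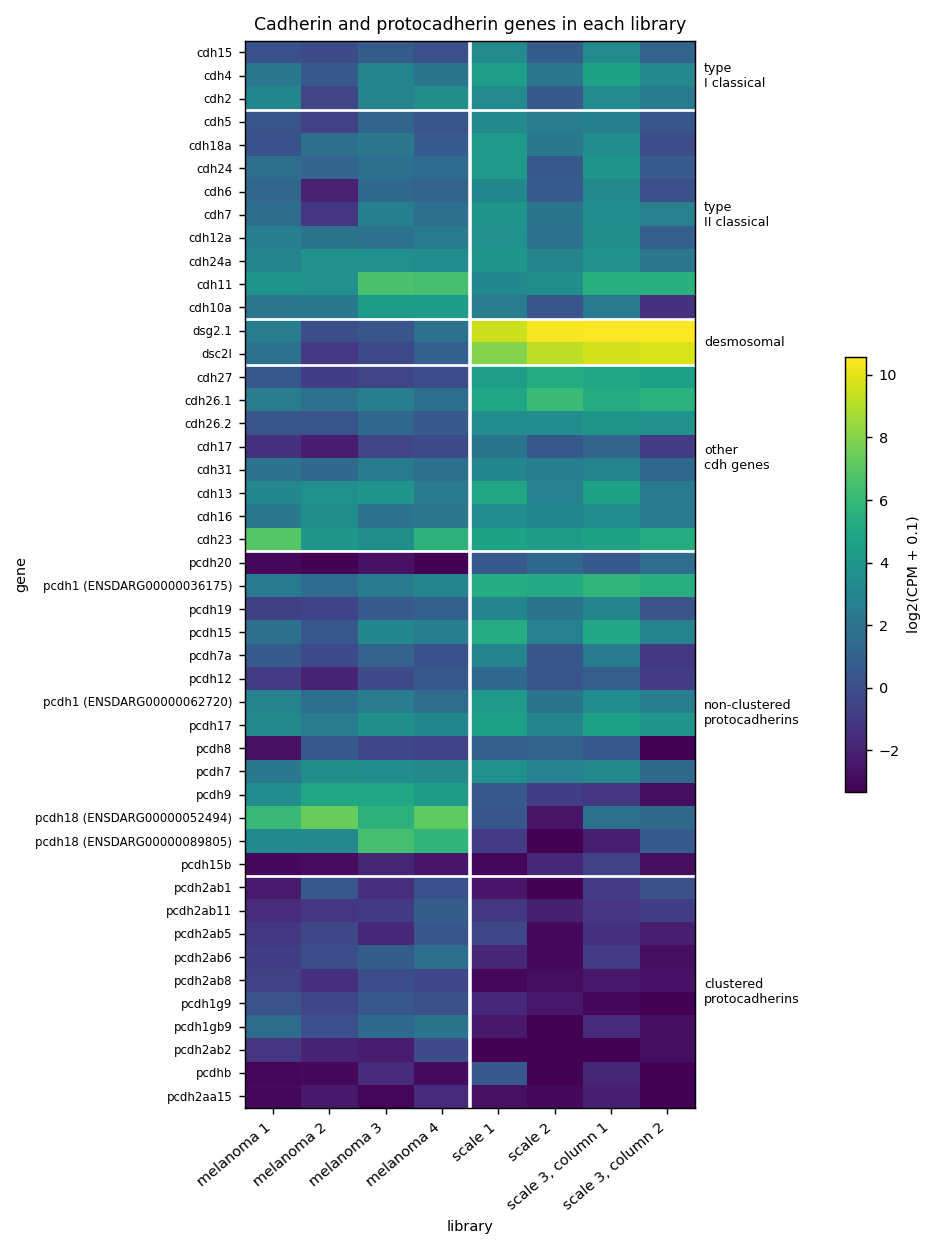
Level of each of the 46 cadherin rows (down the page, by class) in each library (across, melanoma left), as log2(CPM + 0.1). The desmosomal genes dsg2.1 and dsc2l stand out in the scale libraries and pcdh9 and both pcdh18 rows in melanoma.

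The desmosomal cadherins showed the largest falls of the family. The desmoglein gene dsg2.1 (ENSDARG00000076945) was at 5.88, 0.922, 1.15 and 3.51 CPM in melanoma replicates 1 to 4, against 733 CPM in scale replicate 1, 1414 CPM in replicate 2, and 1471 and 1527 CPM in the columns of replicate 3, an order kept below. Every scale library thus lay far above every melanoma library. Groups that did not overlap, in either direction, were found for 36.9% of all tested genes. The fitted change was -8.81 ± 0.82 (adjusted p = 2.33e-05). Desmocollin dsc2l (ENSDARG00000039677), whose product pairs with desmogleins in the desmosome, was at 3.64, 0.394, 0.724 and 1.82 CPM in melanoma, against 258, 581, 815 and 869 CPM in the scale libraries. It fell by 8.58 on the log2 scale (SE 0.88, adjusted p = 4.1e-05). In both genes melanoma replicate 1 had the highest level of its group and replicate 2 the lowest, and scale replicate 1 the lowest of the scale libraries. Without melanoma replicate 1 the changes were -9.42 for dsg2.1 and -9.32 for dsc2l. The genes dsc2l and dsg2.1 are neighbours in RefSeq's GRCz12tu, an assembly other than the one the authors name. In bulk libraries such as these, fewer cells of a type and less RNA per cell cannot be told apart.

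The epidermal markers were lower in melanoma, as the desmosomal genes were. Of 12 rows 12 fell, among them 2 rows of the desmosomal gene dsp, with krt97 at 0 in melanoma replicate 2. Their sum was 201, 28.6, 29.9 and 175 CPM in melanoma replicates 1 to 4, against 49029, 103428, 56404 and 95993 CPM in the scale libraries. Replicates 1 and 4 were the higher melanoma libraries for this sum, as they were for dsg2.1 and dsc2l. Within the scale libraries the orders differed. Replicate 2 had the highest sum, with dsg2.1 at 1414 and dsc2l at 581 CPM. The first column of replicate 3 had a lower sum, with dsg2.1 at 1471 and dsc2l at 815 CPM. The part of epidermal cells in the desmosomal difference was not tested.

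Desmosomal genes took most counts of the 46 matched cadherin rows in the scale libraries and a small share in melanoma. They held 2.81%, 0.397%, 0.430% and 1.08% of the counts of these rows in melanoma replicates 1 to 4, against 68.6%, 87.5%, 82.5% and 88.9% in the scale libraries. Non-clustered protocadherins held 35.6% to 69.6% in melanoma and 3.13% to 10.7% in the scale libraries. Type II cadherins held 12.6% to 33.9% in melanoma and 1.86% to 7.81% in the scale libraries. For these 3 classes the groups did not overlap, nor did they for other cdh genes and clustered protocadherins. In summed CPM the groups did overlap for type II cadherins (42.1 to 148 in melanoma, 42.4 to 125 in the scale libraries). They also overlapped for non-clustered protocadherins (121 to 252 in melanoma, 73.4 to 155 in the scale libraries). For other cdh genes the share was higher in melanoma (10.6% to 43.1%, against 4.98% to 9.80% in the scale libraries). Their summed CPM was not, at 46.4 to 146 in melanoma and 134 to 162 in the scale libraries, where the groups overlapped. The shares do not depend on how libraries are scaled to each other. All are shares of reads, with no correction for gene length, and 1 large class lowers the shares of the others. Family members without a matched row, cdh1 among them, are left out, so shares of the whole family cannot be given. All cadherin rows together took 0.0452% to 0.0780% of a melanoma library's counts and 0.107% to 0.242% of a scale library's.

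**Figure D2:**
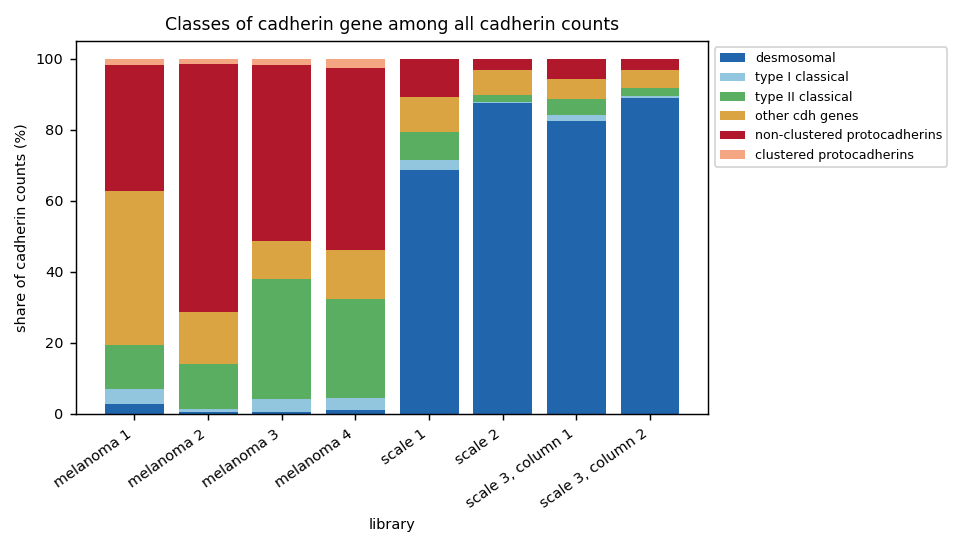
Share of each cadherin class (colours, %) among all counts of the 46 cadherin rows, by library. Desmosomal genes hold 68.6% to 88.9% in the 4 scale libraries and at most 2.81% in the 4 melanoma libraries.

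Among type I cadherins, cdh2 (ENSDARG00000018693), which encodes N-cadherin of neural and mesenchymal cells, did not pass the test. Its level was 8.17, 0.646, 7.2 and 11.7 CPM in melanoma replicates 1 to 4, against 10.4, 1.36, 10.5 and 5.41 CPM in the scale libraries. The groups overlapped over nearly their whole range, with replicate 2 lowest in each. The means were 6.93 ± 4.61 CPM in melanoma and 6.91 ± 4.39 CPM in the scale libraries (SD, n = 4 each), a log2 change of 0.00 ± 0.75 (adjusted p = 0.998). Its sign turned with most alternatives, to -0.63 without the 2 less complex scale libraries. At this spread neither a rise nor a fall was shown.

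The other type I genes fell. R-cadherin cdh4 (ENSDARG00000015002), known from retina and brain, was at 4.57, 1.39, 7.72 and 4.02 CPM in melanoma, against 21.7, 4.69, 25.8 and 9.17 CPM in the scale libraries (a log2 fold change of -1.79 ± 0.61, adjusted p = 0.0369). M-cadherin cdh15 (ENSDARG00000068191), known from muscle precursors, was at 1.02, 0.820, 1.62 and 0.947 CPM in melanoma, against 10.5, 1.64, 10.5 and 2.08 CPM in the scale libraries (a log2 fold change of -2.48 ± 0.66, adjusted p = 0.0119). The groups overlapped for cdh4, and for cdh15 the gap between them was small, since scale replicate 2 lay just above melanoma replicate 3. The call of cdh4 was lost without melanoma replicate 1 (adjusted p = 0.0630), 2 (0.0759) or 4 (0.0870), scale replicate 1 (0.0627) or the first replicate 3 column (0.0755). Under total counts neither gene passed (adjusted p = 0.393 for cdh4 and 0.130 for cdh15).

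With cdh1 not analysed, its balance with cdh2 cannot be given. The ratio of dsg2.1 to cdh2, a pair chosen after its values were seen, does not stand in for it. For each cdh2 count there were 0.720, 1.43, 0.160 and 0.300 dsg2.1 counts in melanoma replicates 1 to 4, against 70.5, 1043, 141 and 282 in the scale libraries. These ratios are taken within a library, so no scaling enters. The groups did not overlap, but dsg2.1 had the largest fall of the family and cdh2 was not called. The ratio thus restates the fall of dsg2.1 and adds no separate result. On the log2 scale they averaged -1.08 ± 1.39 in melanoma and 7.86 ± 1.66 in the scale libraries (SD, n = 4 each).

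**Figure D3:**
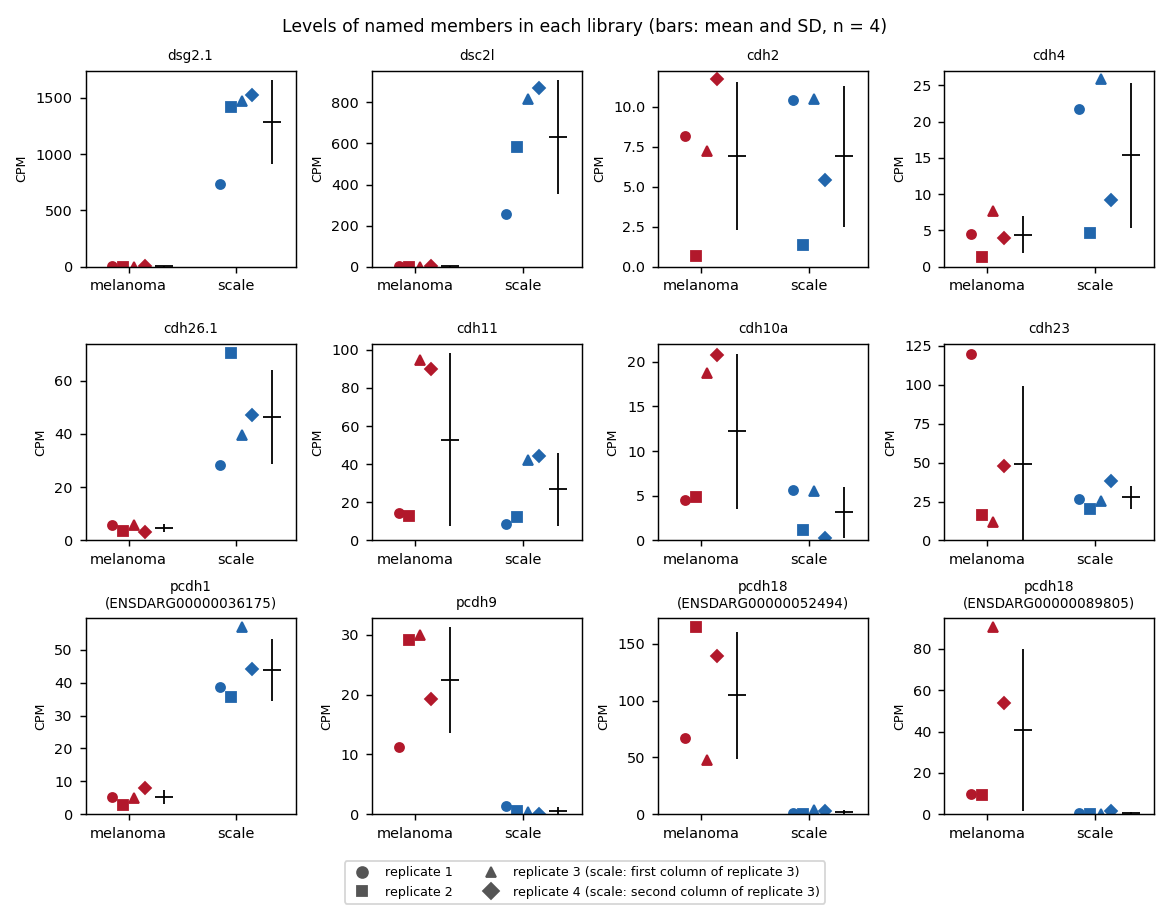
Level (CPM) of 12 named members in each library, melanoma (red) left and scale libraries (blue) right, with a marker per library and the mean ± SD (n = 4). The groups are apart for dsg2.1, dsc2l, cdh26.1, pcdh9, pcdh1 and both pcdh18 rows, and overlap for cdh2, cdh4, cdh11, cdh10a and cdh23.

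Of 9 type II cadherins, 1 fell and 8 were not called, where 15.2% of all tested genes fell. The gene that fell, chosen after its values were seen, was cdh5 (ENSDARG00000075549), which encodes VE-cadherin of blood vessel endothelium. It was at 1.14, 0.567, 2.23 and 1.19 CPM in melanoma, against 10.1, 5.85, 6.31 and 1.24 CPM in the scale libraries (a log2 fold change of -2.20 ± 0.64, adjusted p = 0.0189). The second column of scale replicate 3 lay inside the melanoma range. The call was lost without melanoma replicate 4 (adjusted p = 0.0509) and under total counts (0.229). Other endothelial markers moved both ways: of 6 rows 1 rose (tek) and 1 fell (vwf, a log2 fold change of -1.74). Their sum was 22.3 to 42.0 CPM in melanoma and 9.36 to 25.0 CPM in the scale libraries. Most of the melanoma sum was tek, at 11.9 to 36.8 CPM, against 2.57 to 6.02 CPM in the scale libraries. The uncalled rows had log2 changes of -1.54 (kdr), -0.22 (fli1), 0.26 (tie1) and 0.09 (plvapb). The part of endothelial cells in the level of cdh5 was not tested.

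The type II gene cdh11 (ENSDARG00000021442), whose mammalian product is known from osteoblasts and mesenchyme, differed more within each group than between them. Its level was 14.5, 12.8, 94.5 and 90.0 CPM in melanoma replicates 1 to 4, against 8.72, 12.1, 42.3 and 44.5 CPM in the scale libraries. Melanoma replicates 3 and 4 were high and replicates 1 and 2 low, and both scale columns named replicate 3 stood above scale replicates 1 and 2. The log2 change was 0.98 ± 0.73 (adjusted p = 0.314). In the scale libraries this split ran with the sum of the fibroblast and bone markers, at 338, 702, 3097 and 6136 CPM. Most of the 2 higher sums was col1a1a and col1a2. Other rows of the list did not follow the split, such as runx2b (82.0, 171, 100 and 131 CPM) and postn (9.09, 2.71, 9.35 and 3.75 CPM). All 8 rows fell in melanoma, against 5 under total counts and 6 without the 2 less complex scale libraries. In melanoma those markers summed to 12.3, 4.13, 16.7 and 34.4 CPM in replicates 1 to 4, so replicates 3 and 4 were highest there too, at a far lower level than in the scale libraries. Their part in the level of cdh11 was not tested.

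The neural cadherin gene cdh10a (ENSDARG00000055843) had the same high libraries in melanoma, at 4.53, 4.87, 18.7 and 20.7 CPM, against 5.69, 1.16, 5.49 and 0.294 CPM in the scale libraries (a log2 fold change of 1.94 ± 0.83, adjusted p = 0.0848). DESeq2 called it higher (adjusted p = 0.0269). The gene cdh24a (ENSDARG00000075960) lay close in both groups, at 7.21 to 13.7 CPM in melanoma and 4.45 to 15.5 CPM in the scale libraries (a log2 fold change of 0.11 ± 0.43, adjusted p = 0.858). The gene cdh7 (ENSDARG00000023542), known from migrating neural crest in chick, was at 2.87, 0.355, 6.25 and 3.28 CPM in melanoma, against 15.1, 3.91, 11.1 and 6.54 CPM in the scale libraries (a log2 fold change of -1.52 ± 0.70, adjusted p = 0.108). The other 4 type II genes, cdh6, cdh12a, cdh18a and cdh24, had changes between -1.71 and -0.66 and were not called. Without the 2 less complex scale libraries all 4 were called lower, cdh6 at -2.45 (adjusted p = 0.0488), cdh12a at -1.38 (0.0257), cdh18a at -2.50 (0.0138) and cdh24 at -2.55 (0.00263). DESeq2 called cdh7, cdh18a and cdh24 lower (adjusted p = 0.0360, 0.0326 and 0.0414).

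**Figure D4:**
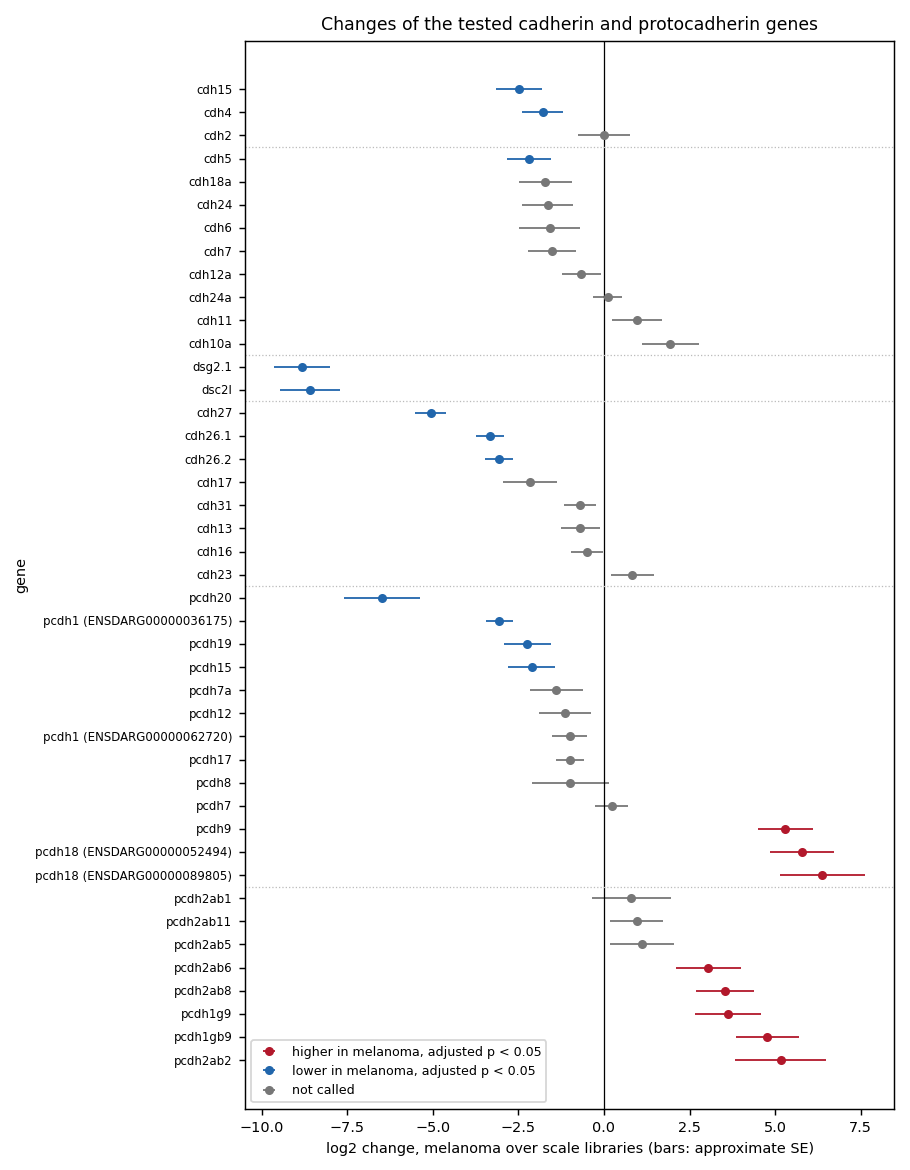
Log2 change of melanoma over scale libraries for the 43 tested cadherin rows, grouped by class, with an approximate SE. All 8 genes called higher are protocadherins, and the lowest values are those of dsg2.1 (-8.81) and dsc2l (-8.58).

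The remaining 8 cdh genes split into 3 that fell and 5 that were not called, where 15.2% of all tested genes fell. The gene cdh27 (ENSDARG00000055093) was at 1.32, 0.473, 0.635 and 0.926 CPM in melanoma, against 21.9, 37.6, 30.4 and 22.8 CPM in the scale libraries (a log2 fold change of -5.07 ± 0.46, adjusted p = 2.2e-05). A second gene, cdh26.1 (ENSDARG00000078404), whose human counterpart is expressed in epithelia, was at 5.68, 3.58, 5.95 and 3.16 CPM in melanoma, against 28.4, 70.2, 39.5 and 47.1 CPM in the scale libraries (a log2 fold change of -3.33 ± 0.41, adjusted p = 0.000127). The third was cdh26.2, chosen after its values were seen, at 1.13 to 2.44 CPM in melanoma and 11.1 to 16 CPM in the scale libraries (a log2 fold change of -3.07 ± 0.41, adjusted p = 0.000209). For each of the 3 genes every scale library lay above every melanoma library. The rows cdh26.1 and cdh26.2 are adjacent in GRCz12tu and similar in name, and near-identical copies could exchange reads.

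The hair cell tip-link cadherin cdh23 (ENSDARG00000007561) was far higher in 1 melanoma library than in the others. Its level was 120, 16.5, 12.2 and 48.1 CPM in melanoma, against 26.9, 20.3, 25.2 and 38.1 CPM in the scale libraries (a log2 fold change of 0.83 ± 0.62, adjusted p = 0.311). The change turned to -0.10 without melanoma replicate 1. The same library was highest for the sum of 8 leukocyte rows, at 2729, 1158, 285 and 873 CPM in melanoma replicates 1 to 4, against 1613, 3128, 1569 and 3929 CPM in the scale libraries. Their part in the level of cdh23 was not tested.

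T-cadherin cdh13 (ENSDARG00000014215), held in the membrane by a lipid anchor, was at 8.95, 12.6, 15.3 and 5.31 CPM in melanoma, against 29.6, 6.93, 26.3 and 5.01 CPM in the scale libraries (adjusted p = 0.371). Kidney cadherin cdh16 (ENSDARG00000077570) was at 4.74, 11.9, 3.84 and 4.51 CPM in melanoma, against 11, 8.25, 10.8 and 4.99 CPM in the scale libraries (adjusted p = 0.428). For both genes the groups overlapped. Without the 2 less complex scale libraries cdh13 was called lower (-1.45, adjusted p = 0.0346). Chosen after its values were seen, the intestinal gene cdh17 missed the threshold (a log2 fold change of -2.16 ± 0.80, adjusted p = 0.0516) as did cdh31 (-0.69 ± 0.47, adjusted p = 0.263). The row cdh17 was called lower with RLE size factors (adjusted p = 0.0367), by DESeq2 (0.00661) and without the 2 less complex scale libraries (-2.86, adjusted p = 0.0178), and cdh31 with the filter at 5 CPM (-1.34, adjusted p = 0.0303).

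Non-clustered protocadherins moved both ways: of 13 tested rows 3 rose and 4 fell, where 21.7% of all tested genes rose and 15.2% fell. The strongest rises were those of 2 rows both named pcdh18, a gene of the delta group of protocadherins. The row ENSDARG00000052494 was at 67.1, 165, 48.1 and 139 CPM in melanoma replicates 1 to 4, against 1.23, 0.0667, 3.56 and 2.73 CPM in the scale libraries (a log2 fold change of 5.78 ± 0.92, adjusted p = 0.000571). The row ENSDARG00000089805 was at 9.79, 9.19, 90.4 and 53.9 CPM in melanoma, against 0.427, 0, 0.122 and 1.43 CPM in the scale libraries (a log2 fold change of 6.38 ± 1.24, adjusted p = 0.00189). All melanoma libraries lay above all scale libraries in both rows, but the rows ranked the melanoma libraries differently. Melanoma replicate 2 was highest in the first row and lowest in the second, and replicate 3 was lowest in the first and highest in the second. The files do not say which zebrafish paralog each row is, and similar copies could exchange reads.

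The change of pcdh18 (ENSDARG00000089805) moved with single libraries. It was 5.64 without melanoma replicate 3, 5.68 without scale replicate 2, 5.74 without the first column of scale replicate 3 and 7.63 without the second. The direction and the call held in each of these fits.

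The delta protocadherin pcdh9 (ENSDARG00000063264), best known from brain, was at 11.3, 29.1, 29.9 and 19.2 CPM in melanoma, against 1.36, 0.489, 0.354 and 0.0419 CPM in the scale libraries (a log2 fold change of 5.30 ± 0.81, adjusted p = 0.000431). The groups did not overlap, and replicate 1 was the lowest melanoma library. Without scale replicate 1 the change was 6.09. Pigment cell markers ran the same way between the groups, with 10 of 11 rows higher in melanoma and mc1r at 0 in scale replicate 2. Melanoma replicate 1 had the lowest sum of those markers, at 1953 CPM against 5041 to 11671 CPM in the other 3 melanoma libraries. The pcdh18 rows were not lowest in melanoma replicate 1. Row ENSDARG00000052494 was lowest, at 48.1 CPM, in replicate 3, which had the highest marker sum. Most of that sum was tyrp1 row ENSDARG00000056151 (6215 CPM) and pmela (3933 CPM). Some other rows ranked the melanoma libraries otherwise, such as sox10 (194, 215, 365 and 434 CPM) and kit (87.9, 81.3, 64.6 and 90.6 CPM). Row ENSDARG00000089805 was highest in replicate 3, at 90.4 CPM, and lowest in replicate 2, at 9.19 CPM. The part of the pigment cell markers in the levels of pcdh9 and pcdh18 was not tested.

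The protocadherins that fell included 1 of 2 rows named pcdh1, an epithelial and endothelial member of the delta group in mammals. Row ENSDARG00000036175 was at 5.24, 2.82, 4.96 and 8.04 CPM in melanoma, against 38.6, 35.7, 57.0 and 44.2 CPM in the scale libraries (a log2 fold change of -3.06 ± 0.40, adjusted p = 0.000172). Its other row, ENSDARG00000062720, was at 3.06 to 7.39 CPM in melanoma and 4.09 to 17.9 CPM in the scale libraries and was not called (a log2 fold change of -1.0 ± 0.52, adjusted p = 0.147). Without the 2 less complex scale libraries that row was called lower (-1.59, adjusted p = 0.0344). The difference between both rows was not tested.

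The gene pcdh15 (ENSDARG00000008127), partner of cdh23 in the hair cell tip link, was at 3.41, 1.28, 8.82 and 6.03 CPM in melanoma, against 38.5, 6.89, 31.4 and 7.42 CPM in the scale libraries (a log2 fold change of -2.11 ± 0.69, adjusted p = 0.0316). Scale replicate 2 and the second column of replicate 3 lay inside the melanoma range. The call of pcdh15 was lost without melanoma replicate 1 (adjusted p = 0.0681), 2 (0.0637) or 4 (0.0590), scale replicate 1 (0.0671) or the first replicate 3 column (0.0537), and under total counts (0.263). The test called pcdh15 and not its partner cdh23, and the difference between them was not tested. Chosen after their values were seen, pcdh19, a gene linked to epilepsy in people, fell (a log2 fold change of -2.23 ± 0.68, adjusted p = 0.0231) and so did pcdh20 (-6.48 ± 1.11, adjusted p = 0.000871). The call of pcdh19 was lost without melanoma replicate 1 (adjusted p = 0.0520) or 2 (0.0578) and under total counts (0.228). The pcdh20 row had 4, 0, 9 and 0 counts in melanoma replicates 1 to 4, against 102, 111, 115 and 142 counts in the scale libraries, so the fitted size of its fall depends on the prior count. Without melanoma replicate 3 that change was -7.68.

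The delta protocadherin pcdh17 (ENSDARG00000027041) was at 9.25, 5.78, 11.9 and 8.29 CPM in melanoma, against 22.7, 7.96, 24.4 and 14.9 CPM in the scale libraries and was not called (a log2 fold change of -0.99 ± 0.42, adjusted p = 0.0817). Only scale replicate 2 lay inside the melanoma range. It was called lower without scale replicate 2 (adjusted p = 0.0204), with upper quartile scaling (0.0202), by DESeq2 (0.0346), with a stricter filter on low counts (0.00930) and on leaving out both less complex libraries (0.0174). Total counts turned its sign (0.03). The other uncalled rows, pcdh7, pcdh7a, pcdh8 and pcdh12, had changes between -1.39 and 0.23. Of these, pcdh7a was called lower without the 2 less complex scale libraries (-2.25, adjusted p = 0.0105). The row pcdh15b did not pass the filter, with 4 to 25 counts a library in melanoma and 1 to 44 in the scale libraries.

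Clustered protocadherins, which give single neurons different surface identities, were counted rarely in both groups, and more often in melanoma. Of 10 rows 8 were tested, 5 rose and 0 fell with edgeR (0 with a negative change at an unadjusted p under 0.05, and 0 lower with DESeq2 or limma-voom). Over all tested genes, 21.7% rose and 15.2% fell. The rows that rose passed the filter through melanoma, with summed scale counts from 2 (pcdh2ab2) to 55 (pcdh2ab6). Their number thus describes the tested rows and is no test of the class. No row of the class passed the filter at 5 CPM in 4 libraries, so that setting did not test them. Clustered rows held 1.64% to 2.78% of the counts of the 46 matched cadherin rows in melanoma and 0.0146% to 0.203% in the scale libraries. The genes of a cluster join their own first exon to shared ones, and the sources used here do not give how reads of shared exons were counted, which leaves single rows uncertain.

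The gamma cluster row pcdh1gb9 (ENSDARG00000088475) was at 2.90, 0.961, 2.56 and 3.97 CPM in melanoma, against 0.0933, 0, 0.220 and 0.0419 CPM in the scale libraries (a log2 fold change of 4.77 ± 0.93, adjusted p = 0.00191). The row pcdh2ab6 (ENSDARG00000091043) was at 0.489, 0.906, 1.59 and 3.17 CPM in melanoma, against 0.187, 0.0222, 0.464 and 0.0419 CPM in the scale libraries (a log2 fold change of 3.05 ± 0.96, adjusted p = 0.0256). The third, pcdh1g9 (ENSDARG00000057519), was at 1.06, 0.678, 1.28 and 0.975 CPM in melanoma, against 0.200, 0.0889, 0.0244 and 0 CPM in the scale libraries (a log2 fold change of 3.62 ± 0.97, adjusted p = 0.0119). In each of the 3 genes every melanoma library lay above every scale library, though for pcdh2ab6 the gap was narrow. The call of pcdh2ab6 was lost without melanoma replicate 4 (2.45, adjusted p = 0.0936) or scale replicate 1 (2.94, adjusted p = 0.0625), with upper quartile scaling (0.0527) and without the 2 less complex scale libraries (0.0866). Without the first column of scale replicate 3 it stood at 3.97 and pcdh1gb9 at 5.57, and without scale replicate 1 pcdh1g9 stood at 4.58.

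The rows pcdh2ab8 and pcdh2ab2 rose too and were chosen after their values were seen. The first had 92, 36, 134 and 100 counts in melanoma and 1, 2, 7 and 3 counts in the scale libraries (adjusted p = 0.00616). The second had 212 counts over the melanoma libraries and 2 over the scale libraries. Relative to library sizes scaled with the TMM factors, this was a ratio of 45.5 with a 95% counting interval of 12.4 to 378. That interval covers counting error only. The rows pcdh2ab1, pcdh2ab5 and pcdh2ab11 were not called. Of these, pcdh2ab1 was at 0.104, 1.28, 0.287 and 1.02 CPM in melanoma, against 0.0800, 0, 0.452 and 1.01 CPM in the scale libraries (a log2 fold change of 0.80 ± 1.16, adjusted p = 0.611). The gene pcdh2ab11 was at 0.244 to 1.58 CPM in melanoma and 0.133 to 0.482 CPM in the scale libraries, and pcdh2ab5 at 0.198 to 1.23 CPM in melanoma and 0.0222 to 0.667 CPM in the scale libraries. The groups overlapped in all 3. The rows pcdhb and pcdh2aa15 did not pass the filter, with at most 32 counts in any melanoma library and 95 in any scale library.

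Some members varied widely between melanoma libraries. Over all genes at 1 CPM or more in a group's mean, the median ratio of the highest to the lowest library was 2.51 in melanoma and 2.46 in the scale libraries. In melanoma 18.4% of these genes had a ratio over 5. The 7 members with the highest ratio in melanoma, of 32 at the same minimum level, were cdh2 (18.1), cdh6 (17.7), cdh7 (17.6), cdh23 (9.85), pcdh18 (ENSDARG00000089805, 9.84), dsc2l (9.23) and cdh11 (7.37). As the most extreme members, they do not show that the family varied more than other genes. Replicate 2 was the lowest melanoma library for each of these except cdh23, for which it was replicate 3. Their highest melanoma library differed: it was replicate 1 for cdh23 and dsc2l, replicate 4 for cdh2 and replicate 3 for the other 4.

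Within the scale libraries, many cadherin genes split by complexity. Both more complex libraries (replicate 1 and the first column of replicate 3) lay above both less complex ones for 25 of 43 tested members, against 34.4% of all tested genes. The reverse order held for 2 members, against 27.6% of all tested genes. Among the 23 members not called, 18 had the first order. A wide spread within the scale libraries itself makes a call less likely. The share over all uncalled genes was not computed, so nothing is read from this count. A type II gene chosen after seeing its values, cdh24, stood at 18.2 and 14.6 CPM in the more complex libraries and 1.40 and 1.51 CPM in the less complex ones, with 2.19 to 3.26 CPM in melanoma. Melanoma thus lay between both kinds of scale library for this gene. Of 8 marker lists, 3 had sums in the same order. Neuron markers summed to 52.0 and 45.0 CPM in the more complex scale libraries and 11.3 and 16 CPM in the less complex ones, endothelial markers to 25.0 and 19.4 CPM against 9.36 and 11.3 CPM, and muscle markers to 11.6 and 13.4 CPM against 9.16 and 8.05 CPM. Some rows of these 3 lists ran the other way. These were tek (2.57 and 2.65 CPM against 6.02 and 3.65 CPM) and tnnt3 row ENSDARG00000068457 (3.56 and 3.70 CPM against 6.02 and 4.89 CPM). The rows vwf, plvapb, ckma, tubb5, isl1 and both acta1 rows had neither order. The sums of epidermal and leukocyte markers had the reverse order, and those of pigment cell, Schwann cell and fibroblast markers neither. Most of the leukocyte sum was cd74a, at 1529 and 1436 CPM in the more complex libraries and 3010 and 3769 CPM in the less complex ones. Of the other leukocyte rows, coro1a followed this order and lcp1 did not (18.8 and 30.3 CPM against 25.7 and 37.7 CPM). Most epidermal rows followed it, but krt4, krt1-19d and evpla did not. The part of these marker lists in the split was not tested.

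**Figure D5:**
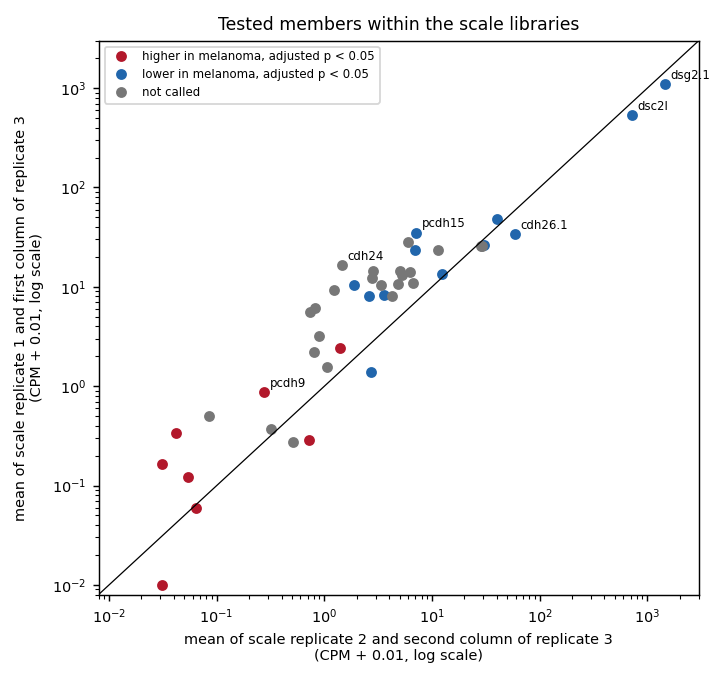
Mean level of the 43 tested members in the 2 more complex scale libraries (vertical) against the 2 less complex ones (horizontal), in CPM + 0.01 on log axes, with the line of equal levels. For 25 of the 43 members both more complex libraries are above both less complex ones; cdh24 and pcdh15 lie above the line and cdh26.1 below it.

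Among intracellular partners of the cadherins, of 20 rows of catenins and desmosomal plaque genes, 10 fell and 0 rose with edgeR (0 with a positive change at an unadjusted p under 0.05, and 0 with DESeq2 or limma-voom), and the median change was -1.24. Over all tested genes, 21.7% rose and 15.2% fell. The 10 that fell encode plaque components of the desmosome or its associates: both jup rows, 5 plakophilin rows, both dsp rows and perp. The plakophilin gene pkp3a was at 2.48, 0.489, 0.888 and 1.72 CPM in melanoma, against 577, 1303, 853 and 1184 CPM in the scale libraries (a log2 fold change of -9.45 ± 0.74, adjusted p = 1.08e-05). Desmoplakin dsp (ENSDARG00000022309) had a change of -7.64 ± 0.53 (adjusted p = 9.21e-06), and the plakoglobin row jup (ENSDARG00000070787) one of -4.81 ± 0.54 (adjusted p = 6.94e-05). The other jup row, ENSDARG00000059067, changed by -1.50 ± 0.37 (adjusted p = 0.00793), a call lost under total counts (0.552).

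The difference between these and the catenins of classical cadherins was not tested. Beta-catenin ctnnb1 was at 195, 202, 455 and 288 CPM in melanoma, against 184, 355, 211 and 296 CPM in the scale libraries (a log2 fold change of 0.12 ± 0.41, adjusted p = 0.832), and its sign turned with RLE (-0.06) and upper quartile (-0.33) scaling. The p120-catenin gene ctnnd1 was at 107, 170, 223 and 228 CPM in melanoma, against 61.7, 141, 103 and 143 CPM in the scale libraries (a log2 fold change of 0.70 ± 0.40, adjusted p = 0.188). Neither was called, and for both the groups overlapped. Under total counts both were called higher (adjusted p = 0.00444 and 0.000498). In that setting 6 of 20 rows of the list were higher and 8 lower, where 40.6% of all tested genes were higher and 6.65% lower. The alpha-catenin gene ctnna1 had no matched row and was not analysed here.

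Of 18 rows of other cadherin superfamily genes, 2 rose and 3 fell, where 21.7% of all tested genes rose and 15.2% fell. Their median change was -0.85. Without the 2 less complex scale libraries 1 row was higher and 10 lower, where 17.8% of all genes were higher and 17.8% lower. DESeq2 called 2 higher and 5 lower. The calsyntenin gene clstn1, for a cadherin-like protein of vesicle transport, was at 87.4, 96.0, 231 and 241 CPM in melanoma, against 10.9, 6.33, 13.7 and 12.8 CPM in the scale libraries (a log2 fold change of 3.91 ± 0.49, adjusted p = 0.000127). The planar polarity gene celsr2 rose by 1.86 (adjusted p = 0.0221). That call was lost without melanoma replicate 2 (adjusted p = 0.0639) or 3 (0.0577), without scale replicate 1 (0.0831) or the first (0.0616) or second (0.0566) column of replicate 3. It was also lost with upper quartile scaling (0.0673) and limma-voom (0.0530). The atypical cadherin fat2 was at 0.972, 0.623, 1.09 and 0.857 CPM in melanoma, against 41.9, 74.0, 45.3 and 62.0 CPM in the scale libraries (a log2 fold change of -5.98 ± 0.42, adjusted p = 9.21e-06). The planar polarity cadherin dchs1a changed by -1.72 ± 0.40 (adjusted p = 0.00517), a call lost under total counts (0.317).

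Transcription factors of the Snai, Zeb and Twist families, of which several are known in mammals to repress E-cadherin, differed in direction. Of 12 rows 4 rose and 2 fell, where 21.7% of all tested genes rose and 15.2% fell. Their median change was 0.10. The gene zeb2a was at 283, 519, 391 and 466 CPM in melanoma, against 11.4, 9.40, 28.2 and 28.0 CPM in the scale libraries (a log2 fold change of 4.43 ± 0.51, adjusted p = 8.16e-05). A second Zeb row, zeb1, rose by 3.51 ± 0.48 (adjusted p = 0.000223). The 2 other rises, named after their values were seen, were those of snai1a and snai2. The first was at 28.4, 28.2, 72.9 and 73.1 CPM in melanoma, against 5.59, 7.13, 5.73 and 2.92 CPM in the scale libraries (adjusted p = 0.000335). The second was at 97.0, 97.5, 242 and 270 CPM in melanoma, against 23.0, 56.9, 32.1 and 35.4 CPM in the scale libraries (adjusted p = 0.00286). Melanoma replicates 3 and 4 were the high ones for both Snai genes, as they were for cdh11 and cdh10a. With 4 melanoma libraries no relation between these genes was tested.

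By contrast twist1a was at 1.44, 0.0158, 0.0956 and 0.415 CPM in melanoma, against 7.33, 6.58, 6.97 and 21.5 CPM in the scale libraries (a log2 fold change of -4.42 ± 1.05, adjusted p = 0.00633; -5.89 without melanoma replicate 1). Its paralog twist1b changed by -3.34 ± 0.97 (adjusted p = 0.0178), a call lost without the second column of scale replicate 3 (-1.95, adjusted p = 0.0850), with limma-voom (0.0591) and under total counts (0.106). It was also lost with both replicate blocks (0.0567 and 0.0881) and without the 2 less complex scale libraries (0.134). The second column of scale replicate 3 was also the highest for the sum of the fibroblast and bone markers.

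Of the 3 rows whose letters match but which are no cadherins, 1 rose and 2 were not called. The uncalled rows were dscam (ENSDARG00000028118) and dscam (ENSDARG00000024865) (log2 changes -1.22 and -1.17, adjusted p = 0.0919 and 0.109). They were called lower by DESeq2 (0.0408 and 0.0468), with upper quartile scaling (0.0317 and 0.0374), with the filter at 5 CPM (0.0168 and 0.0180) and without the 2 less complex scale libraries (-1.96 and -1.83, adjusted p = 0.00510 and 0.0164). The cohesion gene dscc1 was at 2.08, 10.7, 23.6 and 10.9 CPM in melanoma, against 2.96, 5.0, 2.25 and 3.63 CPM in the scale libraries (a log2 fold change of 1.77 ± 0.60, adjusted p = 0.0369). Its call was lost in each fit without 1 library other than melanoma replicate 1, with adjusted p between 0.0541 and 0.141. It was also lost with RLE (0.0579), upper quartile scaling (0.101), the authors' size factors (0.0570) and limma-voom (0.156). With a replicate block that took the first column as 3, the adjusted p was 0.134.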

How the data were processed

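RNA of sorted EGFP-positive cells was sequenced in 8 libraries, 4 of melanoma and 4 labelled scale melanocytes. The submitters' processing notes name STAR 2.3, HTSeq, DESeq2 and the build Zv9, without roles or settings, and whether counting used strand is not given in the sources used here. The authors deposited a table of raw read counts per Ensembl identifier and a table of normalised values (signal), which are those counts divided by size factors per the deposited values; only the size factors were taken from it, for 1 alternative. Each table has 2 columns with the same name for scale replicate 3, which are told apart as first and second. The deposited counts hold no row with a sum under 40.

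Symbols came from a table of Ensembl identifiers, which gave one for 19599 of 28272 rows; some symbols lack the paralog letter, and 6 member rows share a symbol with another. The counts were tested with edgeR 4.0.16 in R 4.3.3 (filterByExpr, TMM factors between 0.467 and 1.67, quasi-likelihood test of group, Benjamini-Hochberg adjustment over 26749 genes). The SE is the log2 change divided by the square root of F. Alternatives were other scalings, DESeq2 1.42.0, limma-voom 3.58.1, other filters, a replicate block, and leaving out libraries.

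Members named with values in every library are cdh2 and, in each class, up to 3 with the highest mean CPM in each group; others are named as chosen after their values were seen. Of the partner lists, up to 2 risen and 2 fallen genes by adjusted p were named, with ctnnb1, ctnnd1 and jup. The members, the lists and the left-out libraries were chosen with earlier results of these data known. Replicate numbers gave no clear pairing of the libraries (correlation of deviations -0.0186 for number 1 and 0.107 for number 2). Melanoma replicate 3 had 0.172 with the first scale column named replicate 3 and -0.152 with the second. No 2 libraries agreed within sampling noise. No transcript lengths and no sequences were used.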

Additional observations from a re-analysis of the deposited data

Results flagged for a closer look

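In 5 of 86 groups of 4 libraries, over the 43 tested members in both groups, 1 library stood apart from the other 3 by Dixon's criterion. For normally distributed values chance alone gives this in about 1 group in 20. In cdh26.2, melanoma replicate 3 stood at 2.44 CPM, where the other melanoma libraries had 1.13 to 1.35 CPM. In cdh16, melanoma replicate 2 stood at 11.9 CPM, where the others had 3.84 to 4.74 CPM. In pcdh2ab11, melanoma replicate 4 stood at 1.58 CPM, where the others had 0.244 to 0.423 CPM. In dsg2.1, scale replicate 1 was lowest at 733 CPM, where the other scale libraries had 1414 to 1527 CPM. In pcdh2ab2, the second column of scale replicate 3 stood at 0.0419 CPM, which is 2 counts, where the other scale libraries had 0. With 0 in the other 3, any count meets the criterion, so nothing is read from this flag.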

How the results depend on the processing

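The fit of the report gave 8 members higher and 12 lower in melanoma. With total counts alone there were 11 higher and 7 lower, with a filter of at least 5 CPM in 4 libraries 3 higher and 12 lower among 24 tested members, and without the 2 less complex scale libraries 7 higher and 21 lower. Leaving out 1 library at a time gave 7 to 8 higher and 9 to 16 lower. The other settings gave 7 to 9 higher and 10 to 17 lower. The sign of cdh2 turned with RLE scaling (-0.078), upper quartile scaling (-0.44), the authors' size factors (-0.070), DESeq2 (-0.077), limma-voom (-0.28), the 5 CPM filter (-0.65) and without the 2 less complex libraries (-0.63). That of ctnnb1 turned with RLE (-0.061), upper quartile (-0.33), the authors' size factors (-0.055), DESeq2 (-0.061) and the 5 CPM filter (-0.49). Those of cdh24a and pcdh7 turned with upper quartile scaling (-0.37 and -0.25), the 5 CPM filter (-0.57 and -0.45) and without the 2 less complex libraries (-0.40 and -0.27). Total counts turned cdh12a (0.29), cdh31 (0.36), cdh13 (0.21), cdh16 (0.54), pcdh17 (0.032) and pcdh8 (0.051). None of these genes was called in that fit, and the cause was not tested. Leaving out 1 library gave -0.45 to 0.39 for cdh2, -0.10 to 1.16 for cdh23, -0.20 to 0.28 for cdh24a, -0.13 to 0.46 for pcdh7 and -0.23 to 0.28 for ctnnb1; without the first column of scale replicate 3 ctnnb1 was at -0.19, without the second cdh2 was at -0.15, and without scale replicate 2 cdh24a was at -0.072. The replicate block was fitted with each way of numbering both columns of scale replicate 3. It gave 8 higher with 11 or 10 lower. It lost cdh5 and pcdh19 in both and cdh15 in 1, and put cdh2 at -0.22 and -0.20. The libraries share only a number. Scale replicate 1 correlated best with melanoma replicate 3 (0.158), as did the first column of scale replicate 3 (0.172). The log2 difference of the dsg2.1 to cdh2 ratio was -8.94, between -9.52 and -8.22 leaving out 1 library and -7.72 without the 2 less complex ones. The alternatives for a cdh1 to cdh2 ratio were not run, since cdh1 had no matched row. Genes with few counts, such as the clustered protocadherins, have fitted changes that move with single libraries (4.36 to 8.32 for pcdh2ab2).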
